A study of Mus musculus with 2 samples.

Results

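Mir203 and Mir205 are 2 of the 1973 miRNA genes counted in small RNA of the facial prominence of mouse embryos, from which the face and the jaws arise. They were chosen by gene identifier, as the pair of miRNAs best known from stratified epithelium. The tissue came from strain B6NCrl at embryonic day 15.5, males and females mixed and recorded as healthy, and no treatment or mutation is given. There was 1 group, measured in 2 biological replicates: 78 embryos were pooled for replicate 1, and 62 for replicate 2. The labels tie both pools to the same donor record, and only whole dissected tissue was measured. A level in such a sample joins cell number and content, so fewer cells of a type and less RNA per cell cannot be told apart.

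A miRNA is cut from a hairpin in its primary transcript, and the mature strand then guides Argonaute to messenger RNAs that pair with its seed, the bases near its 5′ end. miR-203 is known in mouse skin as a brake on progenitor growth that comes up when basal keratinocytes leave the basal layer, and the p63 transcript is its best known target there. miR-205 is known from the basal and stem cells of mouse skin, where it sustains growth signalling through the PI3K and AKT pathway, and in cultured epithelial cells it acts with the Mir200 family against Zeb1 and Zeb2, repressors of the epithelial state.

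The mature strands and the hairpins are shown first, because the levels below are counts over the whole hairpin and do not tell the arms apart. All 4 arms of both genes have 22 bases. The sequences are those of RefSeq on GRCm38.p6, 5′ to 3′, with the seed (bases 2 to 8) in capitals.
miR-203-3p, the arm known as the main product of Mir203: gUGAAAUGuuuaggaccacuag
miR-203-5p, the other arm of Mir203: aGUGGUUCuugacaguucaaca
miR-205-5p, the arm known as the main product of Mir205: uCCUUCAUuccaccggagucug
miR-205-3p, the other arm of Mir205: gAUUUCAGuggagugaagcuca

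None of these 4 seeds occurs in any other of the 1679 mature mouse miRNAs in the RefSeq table. The pair is therefore not a seed family: the 2 main arms share no run longer than 4 bases and the hairpins none longer than 6 bases. In the hairpins, which follow, capitals mark both mature arms.
Mir203 hairpin: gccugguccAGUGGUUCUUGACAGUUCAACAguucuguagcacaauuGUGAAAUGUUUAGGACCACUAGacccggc
Mir205 hairpin: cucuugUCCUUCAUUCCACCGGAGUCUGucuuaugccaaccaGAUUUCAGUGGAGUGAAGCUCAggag

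The genes lie on different chromosomes. Mir203 (ENSMUSG00000065574, 76 bases, plus strand) lies at chr12:112130880-112130955 on mm10, outside any other GENCODE gene, 3320 bases beyond Aspg and 15252 bases before Kif26a. Mir205 (ENSMUSG00000065533, 68 bases, minus strand) lies at chr1:193507463-193507530, within an exon of its long noncoding host gene 4631405K08Rik, which RefSeq calls Mir205hg. Its nearest protein-coding gene below is Camk1g, 137164 bases away, and above it Plxna2, 1110687 bases away.

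The miRNA genes nearest to each had few or no reads. Mir3073a and Mir6939, on the 2 sides of Mir203, had 0 reads in both libraries, as had Mir3473c on one side of Mir205. Mir3962, on the other side of Mir205, had 22 reads in replicate 1 and 43 in replicate 2. These neighbours lie 21.6 and 528.3 kb from Mir203, and 1508.8 and 1314.5 kb from Mir205. Of all 1973 counted genes, only 600 had any read in replicate 1 and 668 in replicate 2, so a neighbour without reads is common. Read in the same direction, neither hairpin shares a stretch of 20 bases with another of 2202 GENCODE mouse miRNA hairpins. Its reads could thus be told from those of the other hairpins in that set. The levels count both strands, and RefSeq places a further miRNA on the strand opposite Mir203, whose reads are described below.

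By reads mapped to 1 place, Mir203 was the most abundant counted miRNA gene in replicate 1 and came next to the top in replicate 2. It had 270779 reads in replicate 1 and 430680 reads in replicate 2, out of 2978463 and 6408008 reads on counted genes. As levels, in counts per 1000000 reads on miRNA genes after TMM scaling (CPM), replicate 1 had 90596 CPM and replicate 2 had 67445 CPM, which gives a mean of 79020 ± 16370 CPM (SD, n = 2). Its neighbour in the order of mean levels, Mirlet7i of the let-7 family, stood at 65859 CPM in the first pool and at 75098 CPM in the second. Mir203 was thus above Mirlet7i in replicate 1 and below it in replicate 2, so neither was the higher in both.

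Mir205 was likewise among the 15 most abundant genes of each library. It had 72557 reads in replicate 1, at rank 10, and 113085 reads in replicate 2, at rank 15. These were 2.44% of counted reads in replicate 1 (95% Clopper-Pearson interval 2.42 to 2.45) and 1.76% in replicate 2 (1.75 to 1.77), intervals that cover counting error only. As a level, replicate 1 had 24276 CPM and replicate 2 had 17709 CPM, which gives a mean of 20992 ± 4643 CPM (SD, n = 2). By mean level Mir429 of the Mir200 family stood directly above it (21303 ± 3037 CPM) and Mir100 directly below (20671 ± 5597 CPM, SD, n = 2). Mir205 was above both of these genes in replicate 1 and below both in replicate 2.

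**Figure D1:**
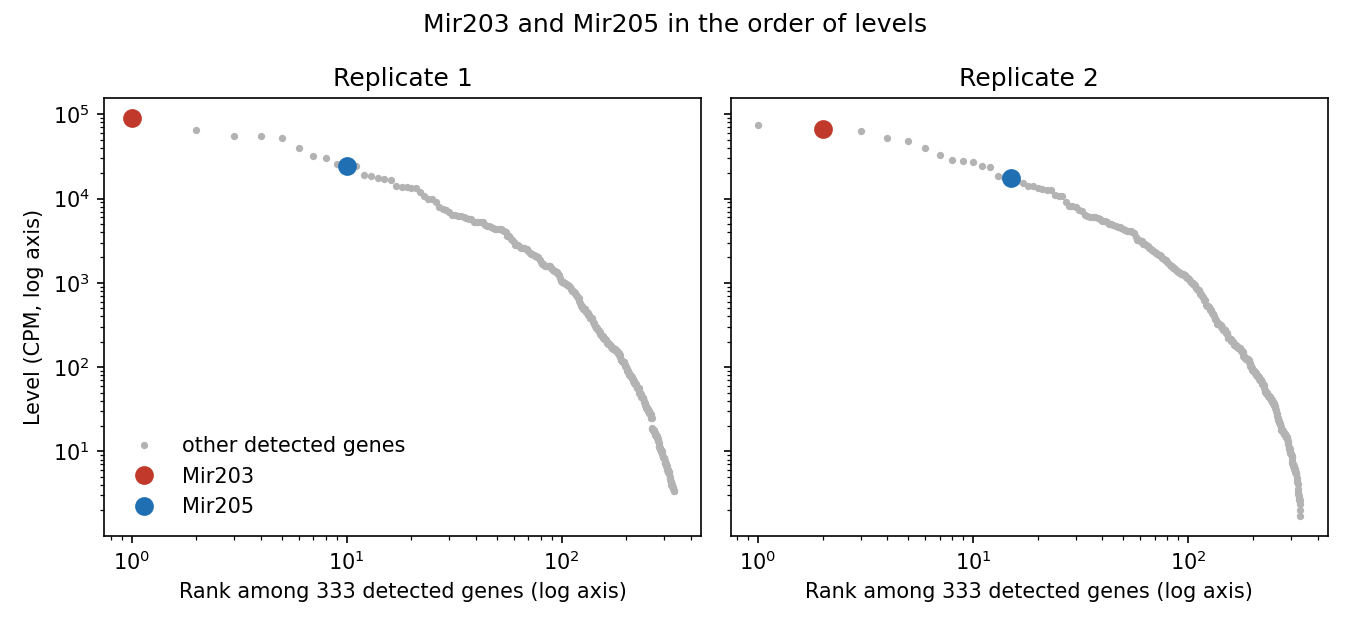
Level of each of the 333 detected miRNA genes (at least 10 reads in each library) in CPM, log axis, against its rank, log axis, for replicate 1 on the left and replicate 2 on the right. Mir203 (red) stands at rank 1 in replicate 1 and rank 2 in replicate 2, and Mir205 (blue) at rank 10 and rank 15.

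The order does not rest on hairpin length. Counted per base of hairpin, Mir203 kept ranks 1 and 2 and Mir205 stood at rank 8 in replicate 1 and rank 15 in replicate 2. Mature products are close to equal in length: those of the 19 of the top 20 genes with an entry in the RefSeq table have 21 to 23 bases. Multiply mapping reads, 30.6% of all reads in replicate 1 and 29.7% in replicate 2, were not assigned to genes and are left out of all these levels. The ranks therefore hold among reads mapped to 1 place, and genes with near-identical copies may be ranked too low. With multiply mapping reads added to the totals, Mir203 took 5.68% of replicate 1 and 4.07% of replicate 2, and Mir205 took 1.52% and 1.07%.

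The ratio of Mir203 to Mir205 varied less between the pools than either level. Mir203 had 3.73 reads for each read of Mir205 in replicate 1 (95% exact binomial interval 3.70 to 3.76) and 3.81 in replicate 2 (3.78 to 3.83), a mean ratio of 3.77 ± 0.0541 (SD, n = 2). Since the mature arms have equal lengths, the ratio per base of mature product is the same, and per base of hairpin it was 3.34 in replicate 1 and 3.41 in replicate 2. Together both genes supplied 11.5% of counted reads in replicate 1 and 8.49% in replicate 2. Mir203 was 78.9% of that pair in replicate 1 and 79.2% in replicate 2.

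The levels were then set beside lists of miRNAs known as markers of other cell types, none of which was identified as cells in these samples. Mir203 exceeded the sum of each list named here in both libraries. The ratio of the Mir203 level to the summed list was 2.44 in replicate 1 and 1.56 in replicate 2 for the 5 genes of the Mir200 family, general epithelial markers. It was 5.90 and 4.68 for the cartilage genes Mir140 and Mir455, 3.75 and 2.37 for the endothelial Mir126a, and 5.07 and 3.70 for the smooth muscle genes Mir143 and Mir145a. Against the mesenchyme list, Mir199a-1, Mir199a-2, Mir199b and Mir214, it was 5.01 in replicate 1 and 4.07 in replicate 2, but 3 of these 4 genes share sequence with each other, and reads mapped to several places are not in their sum.

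Mir205 stood at a level like that of these lists. It was above the cartilage sum in both libraries, by 1.58-fold in replicate 1 and by 1.23-fold in replicate 2. Against Mir126a its ratio was 1.01 in replicate 1 and 0.623 in replicate 2, and against smooth muscle 1.36 and 0.971, so the order of Mir205 and these lists differed between the pools. It was below the Mir200 family sum in both, with ratios of 0.654 in replicate 1 and 0.408 in replicate 2. Markers of the connective and muscle lineages that facial tissue holds were present, with cartilage at 14886 ± 674 CPM and the muscle gene Mir206 at 6878 ± 1390 CPM (SD, n = 2). The leukocyte genes Mir223 and Mir150 summed to 525 ± 31.0 CPM, and the liver gene Mir122 had 50.2 ± 28.0 CPM (SD, n = 2). Mir142, the other leukocyte marker of the list, is not among the counted genes, and Mir142b held 2113 reads in replicate 1 and 3952 in replicate 2 on its opposite strand, which are not in that sum.

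**Figure D2:**
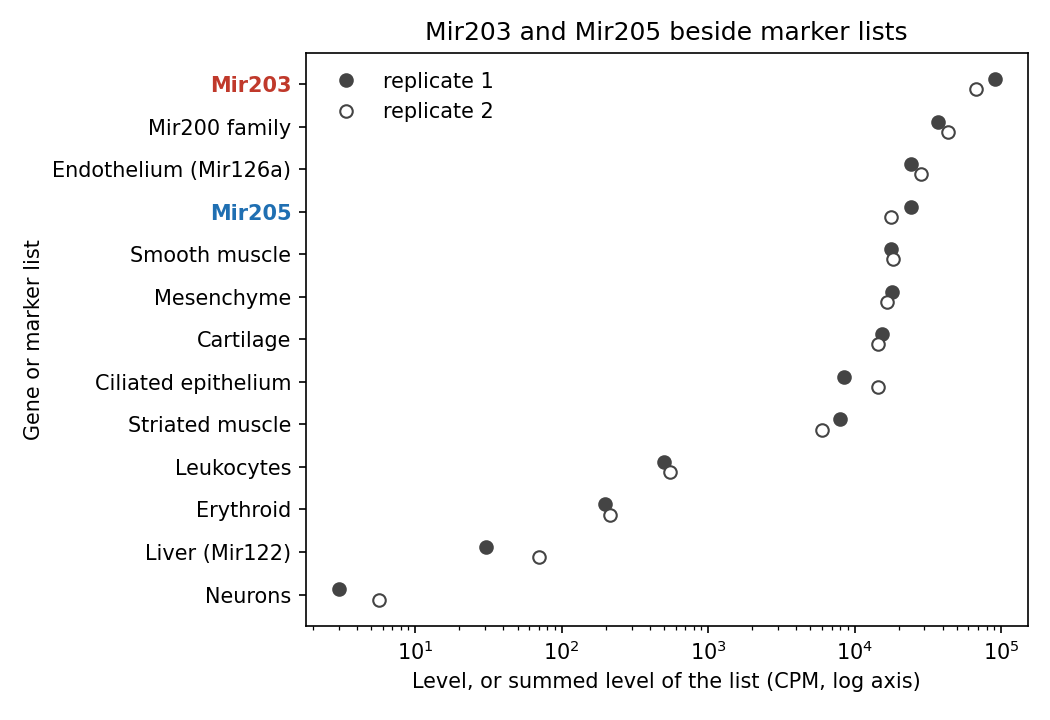
Level of Mir203 and Mir205, and the summed level of each marker list, in CPM on a log axis, with replicate 1 as filled and replicate 2 as open points. Mir203 lies to the right of every list in both replicates, while Mir205 lies among Mir126a, smooth muscle, mesenchyme and cartilage. The neuron list and most of the striated muscle list hold genes with near-identical copies, whose reads mapped to several places were not counted.

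Within a list of miRNAs known from skin, oral epithelium and hair follicles, Mir203 and Mir205 supplied most of the reads mapped to 1 place. Their share was 63.6% in replicate 1 and 52.9% in replicate 2. All 18 counted genes of the list of 19 were detected, and Mir24-1 is not among the counted genes. The summed list reached 180494 CPM in replicate 1 and 160910 CPM for replicate 2. Mir203 made up 50.2% of that sum in replicate 1 and 41.9% in replicate 2, and Mir205 made up 13.4% and 11.0%. Of the 19 listed genes, 5 share sequence with other hairpins, and reads mapped to several places are not in the sum. Neither Mir203 nor Mir205 is among those genes, so these shares may be too high. The list was chosen with earlier results of these data known, so its sum is a description.

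The other members of the list stood between rank 11 and rank 243 by mean level. Of these others, Mir429 and Mir200c were the most abundant, at 21303 ± 3037 and 10424 ± 664 CPM, and Mir429 stood directly above Mir205 by mean level. Mir183 (7620 ± 1964 CPM) and Mir182 (7308 ± 1303 CPM), of a cluster known from sensory epithelia, followed. Mir21a, linked to epithelial growth and wound repair, had 5839 ± 80.6 CPM (all SD, n = 2). Mir31, known from hair follicle cycling and wound edges, stood at 759 CPM in replicate 1 and at 538 CPM in replicate 2. Mir184, known from cornea and epidermis, was lowest with 33.8 CPM in replicate 1 and 49.5 CPM in replicate 2. The values of Mir24-2, Mir27b, Mir125b-1 and Mir125b-2 are uncertain, because they share 20 or more bases with other hairpins.

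**Figure D3:**
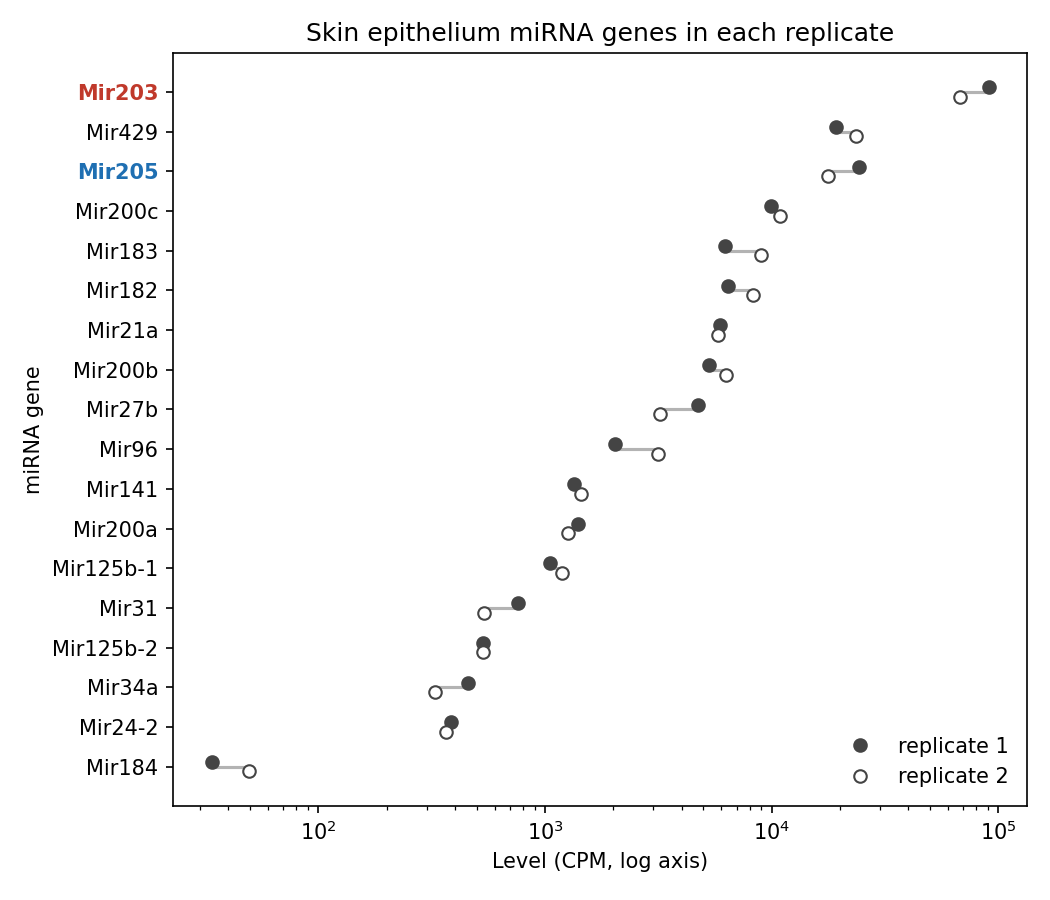
Level in CPM, log axis, of the 18 counted skin epithelium miRNA genes, ordered by mean level, with replicate 1 as filled and replicate 2 as open points and a grey line joining them. The filled points of Mir203 and Mir205 lie to the right of the open ones, whereas those of Mir429, Mir200c, Mir183 and Mir182 lie to the left.

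The design holds no treated or mutant group, so the comparison left is pool against pool. Mir203 and Mir205 were both higher in replicate 1, by 1.34-fold for Mir203 and 1.37-fold for Mir205. The log2 ratio of replicate 1 over replicate 2 was 0.43 for Mir203 (95% exact binomial interval 0.42 to 0.43) and 0.46 for Mir205 (0.44 to 0.47). These intervals cover counting error in 2 libraries, and with a single library on each side no p-value can be formed. Neither gene passed 1.5-fold, whereas 36 of the 333 detected genes (10.8%) did, 11 of them (3.30%) higher in replicate 1 and 25 (7.51%) higher in replicate 2. With reads mapped to several places in the totals, that split became 16 higher in replicate 1 and 20 higher in replicate 2.

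Most genes at such levels differed less. The median log2 ratio over the 333 genes was 0.02 and its median size 0.20. Among the 102 genes with a mean of at least 1000 CPM, 11 had a log2 ratio larger in size than that of Mir203 and 9 one larger than that of Mir205. Among the 12 genes with a mean level of at least that of Mir205, Mir205 and Mir203 had the highest ratios, followed by Mir23a at 0.23, and Mir429 had the lowest at −0.29. That cutoff is the level of Mir205 itself and was not planned. Mir100, directly below it, had a ratio of −0.56, larger in size than those of Mir203 and Mir205. Reads per library and pool size differ with the replicate, and their part in this was not tested.

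The other skin epithelium miRNAs were not shifted as a group toward replicate 1. Without Mir203 and Mir205, the 16 remaining genes reached a sum of 65623 CPM for replicate 1 and 75756 CPM for replicate 2, a log2 ratio of −0.21. Of the 16, 7 were higher in replicate 1 and 9 in replicate 2 (median log2 ratio −0.12), and only Mir96 passed 1.5-fold (−0.63). Mir31 (0.50), Mir34a (0.48) and Mir27b (0.55) had ratios near those of Mir203 and Mir205. Of the Mir200 family, Mir200a was higher in replicate 1 (0.15), and Mir200b (−0.26), Mir200c (−0.13), Mir141 (−0.10) and Mir429 (−0.29) were higher in replicate 2.

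The markers of other cell types moved both ways between the pools. The sum for striated muscle had a log2 ratio of 0.41, close to those of Mir203 and Mir205, with 2 of its 5 counted genes detected. Nearly all of it was Mir206, with 23495 of 23735 reads in replicate 1 and 37647 of 38104 in replicate 2. Mir133b, the other detected gene, had a ratio of 0.17. Mir133a-1 and Mir133a-2 stood at 0, but they share sequence with each other, and reads mapped to several places were not counted. The mesenchyme sum had a log2 ratio of 0.13, which came from Mir214 (0.16), while the other 3 genes of that list were higher in replicate 2 and the list's median was −0.24. The sums had log2 ratios of 0.09 for cartilage, −0.03 for smooth muscle, −0.12 for leukocytes, −0.12 for erythroid cells, −0.23 for endothelium, −0.77 for ciliated epithelium and −1.20 for liver, the last from 91 reads of Mir122 in replicate 1 and 447 in replicate 2. The erythroid sum joined opposite shifts, with Mir144 higher in replicate 1 (0.86, past 1.5-fold) and Mir451a higher in replicate 2 (−0.58). All 5 ciliated epithelium genes were higher in replicate 2, with a sum of 8432 CPM for replicate 1 and of 14387 CPM for replicate 2. The part of tissue composition in the ratios of Mir203 and Mir205 was not tested.

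**Figure D4:**
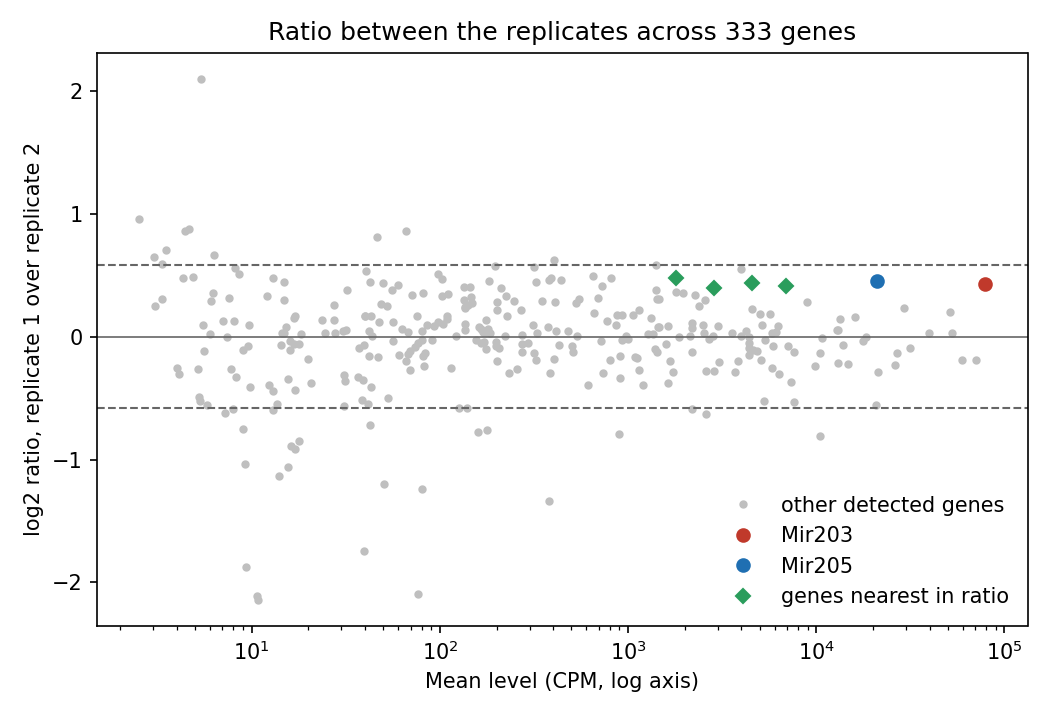
Log2 ratio of replicate 1 over replicate 2 for the 333 detected genes against mean level in CPM, log axis. Dashed lines mark 1.5-fold in each direction. Mir203 (red, 0.43) and Mir205 (blue, 0.46) lie below the upper line, and green diamonds mark the genes of at least 1000 CPM whose ratios are nearest to theirs.

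The genes most like Mir203 and Mir205 in this ratio included each other. Likeness was the gap in log2 ratio among the 102 genes of at least 1000 CPM, over 2 libraries only. Nearest to Mir203 were Mir206, a skeletal muscle miRNA (gap −0.01), Mir381 of the imprinted Dlk1-Dio3 locus (0.01), Gm25252 (−0.03) and Mir205 (0.03). All reads counted for Gm25252 lay on the opposite strand, so its value is not that of its own product. Nearest to Mir205 were Mir381 (−0.02), Mir483, which lies within the Igf2 gene (0.02), Mir203 (−0.03) and Mir206 (−0.04). The difference between the log2 ratios of Mir203 and Mir205 was −0.03, with a counting interval of −0.04 to −0.01. With 1 ratio per gene, such likeness describes these libraries alone.

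Mir203 also carried reads on the opposite strand, where a further miRNA is annotated. Its RefSeq gene is Gm51289 and its arms, with the seed in capitals, are shown because they are the reverse complement of the Mir203 arms over 20 bases each.
miR-203b-5p, opposite miR-203-3p: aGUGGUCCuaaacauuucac
miR-203b-3p, opposite miR-203-5p: uUGAACUGucaagaaccacugg

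Opposite-strand reads at Mir203 were rare, 14 in replicate 1 and 54 in replicate 2. Scaled to 1000000 reads of Mir203 this was 51.7 in replicate 1 (95% Clopper-Pearson interval 28.3 to 86.7) and 125 in replicate 2 (94.2 to 164), so the share was lower in replicate 1 beyond counting error. Mir205 had 0 opposite-strand reads among 72557 in replicate 1 and 113085 in replicate 2. On the same scale its 95% Clopper-Pearson interval reached 50.8 in replicate 1 and 32.6 in replicate 2, and a limit of 3 reads gives 41.3 and 26.5. The intervals of Mir203 and Mir205 thus overlapped in replicate 1 and not in replicate 2. Such reads were not particular to Mir203. Of the 58 genes with at least 10000 reads in each library, 42 had no opposite-strand read in either, and 6 had a higher opposite-strand share than Mir203 in both. These 6 included Mir126a, with 7 reads in replicate 1 and 24 in replicate 2, and Mirlet7b, with 7 and 27, and the other 4 were genes whose reads all lay on the opposite strand. The counts give no position within the hairpin, so whether the reads at Mir203 match the miR-203b arms was not tested.

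For context, the seed matches of the main arms were looked up in the 3′ UTRs of genes known as their targets. No messenger RNA was measured here, and a match is a description of sequence, not of binding. The 7-base match to the miR-203-3p seed, CATTTCA, on the transcript strand, occurs in 16.1% of 21037 mouse 3′ UTRs, taking the longest of each gene. All 6 listed genes hold it: Trp63, Socs3, Snai2, Bmi1, Abl1 and Skp2. The sites of Trp63, the p63 regulator of the basal layer, and of Skp2, which drives cell cycle entry, are shown because both genes are known targets in mouse skin, with the match in capitals and coordinates on GRCm38.
Trp63, chr16:25891530-25891552, plus strand: caggggactctgtggCATTTCAg
Skp2, chr15:9115116-9115138, minus strand: ccttataagccaacaCATTTCAt
Skp2, chr15:9113142-9113164, minus strand: tttctgggattaacaCATTTCAa

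Long 3′ UTRs hold the match often. Among UTRs within 20% of the length of that of Trp63 (3064 bases) 33.5% hold it, and for Skp2 (4872 bases) 51.3% do. The match to the miR-205-5p seed, ATGAAGG, occurs in 11.1% of all 3′ UTRs and in 4 of the 7 listed genes, Zeb1, Inppl1, Erbb3 and Vegfa. Zeb2, Phlpp2 and Inpp4b hold no such 7 letters in the UTR searched. Inppl1, the lipid phosphatase SHIP2 that limits AKT signalling, is a known miR-205 target in human keratinocytes, and Erbb3, a receptor of the EGF receptor family, is one in human cancer cells, so their sites are shown.
Inppl1, chr7:101822902-101822924, minus strand: tccatccgtccggaaATGAAGGa
Erbb3, chr10:128569093-128569115, minus strand: agactccctggagatATGAAGGa

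Among UTRs of like length, 6.33% hold ATGAAGG for Inppl1 (748 bases) and 13.7% for Erbb3 (1845 bases).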

How the data were processed

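Both libraries are microRNA sequencing of total RNA. Raw counts of reads per miRNA gene, on mm10 with GENCODE M4, were deposited by the authors, per the deposited file lists. Each gene has 3 counts, read here from the values, since no header names them, as either strand, the strand of the gene and the opposite strand. Neither aligner nor counter is given in the sources used here. Lines without a gene (unmapped 16.2% in replicate 1 and 21.8% in replicate 2, several places 30.6% and 29.7%, outside genes 2.19% and 3.01%) stayed out of library totals. The libraries held 5840705 and 14085643 reads, so replicate 2 has the smaller counting error.

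Symbols and positions came from GENCODE M21 on the same build (GRCm38), matched by identifier without version, for 1894 of 1973 genes. Sequences came from RefSeq (GRCm38.p6), and target sites from GENCODE M21 transcripts. Counts on either strand were scaled by TMM (edgeR 4.0.16, R 4.3.3), fitted on the 333 genes with at least 10 reads in each library. CPM is the level, and mean and SD cover 2 pools. Intervals are 95% exact binomial ones. Reads carry no molecular identifiers in the labels, so intervals and floors cover counting error only. No test was run between the pools, and a gene counts as past the fold when its CPM differs over 1.5-fold. Scaling was checked on simulated data for replicate 1 over replicate 2 (1973 genes, 345 passing the filter), where genes made 2-fold higher had a median log2 ratio of 1.01 and unchanged genes 0.002. Alternatives were other scalings (totals, DESeq2 1.42.0), strands, totals, filters, folds and each replicate left out.

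Named genes are Mir203 and Mir205, the skin list, the 4 genes nearest in ratio at 1000 CPM or more, neighbours in level and position, and known targets. Members and lists were chosen with earlier results of these data known. Python 3.11.15, pandas 2.3.3, scipy 1.17.1 and matplotlib 3.10.9 were used.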

Additional observations from a re-analysis of the deposited data

Results flagged for a closer look

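The count of opposite-strand reads is not used on its own for any level, and at Mir203 it exceeded the limit that a count of 0 allows (3 reads) in both libraries, with 14 reads in replicate 1 and 54 reads in replicate 2. In CPM this is 4.68 in replicate 1 and 8.46 in replicate 2. Mir205 had 0 in both.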

How the results depend on the processing

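Neither log2 ratio changed sign under any alternative, and 14 of the 50 values recomputed moved past the limit set for their kind. The limit was 1 SD for levels, sums, shares and the ratio of reads. It was the counting interval for log2 ratios and 1.5-fold for counts of genes. A value from 1 of only 2 pools lies within about 1 SD of their mean by construction, so leaving out a replicate could not count as a move. The share of Mir203 and Mir205 in the skin list does not depend on the library scale, so other scalings and totals could not move it either. No alternative assigned reads mapped to several places to genes, so the effect of such reads on that share was not tested. With reads mapped to several places in the totals, the mean level was 48694 CPM for Mir203 and 12938 CPM for Mir205 and the skin list summed to 105040 CPM. The log2 ratio of Mir203 was then 0.47, against 0.44 with totals only, 0.41 with DESeq2 size factors and 0.40 with TMM fitted on genes of at least 100 reads. That of Mir205 was 0.50, 0.44 with DESeq2 size factors and 0.43 with the 100-read filter. Per base of hairpin, an alternative added after seeing the data, Mir203 over Mir205 was 3.37. Genes past 1.5-fold numbered 333 of 708 with any read, where fewer reads per gene and genes at 0 in 1 library enter, 14 of 247 with at least 100 reads, and 12 of 333 when 2-fold was asked.

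Leaving out each replicate in turn, with totals in place of TMM, gave 67210 to 90912 CPM for Mir203, 17647 to 24361 CPM for Mir205, 3.73 to 3.81 for their ratio, 160349 to 181126 CPM for the skin list and 52.9% to 63.6% for the share of Mir203 and Mir205 in it. No paired analysis was possible because all samples belong to 1 group. With 2 pools, an SD has 1 degree of freedom, and no spread within a pool was measured.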
